A study of Drosophila melanogaster with 33 samples.

Results

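Ada2b peaks were examined on chromosome 4, on the heterochromatic Het sequences and on the unplaced sequences U and Uextra of the Drosophila melanogaster genome version dm3. All peaks whose sequence name was 4, U or Uextra or ended in Het were taken, and mitochondrial peaks were left out. These were 280 of 4654 Ada2b peaks in replicate 1 (6.02%) and 298 of 4484 in replicate 2 (6.65%). Both lists came from chromatin immunoprecipitation sequencing (ChIP-Seq) of Ada2b with a rabbit antibody in Ataxin-7 mutant embryos, collected at 1 to 3 hr and staged from 4 to 6. The series holds 33 libraries in 13 groups, of which 14 were wild type and 19 Ataxin-7 mutant, with histone targets and total chromatin beside Ada2b. Ada2b had no wild type library here, so every value below is from mutant embryos and genotypes were not compared. The mutant allele is not given in the sources used here, chromatin was made from bulk embryos, and the labels do not say whether the replicates were separate collections.

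Ada2b is a subunit of the histone acetyltransferase module of SAGA, a coactivator complex that acetylates histone H3 at promoters, and of the smaller ADA complex. Ataxin-7 anchors the deubiquitinase module, which removes ubiquitin from histone H2B, to the rest of SAGA. Chromosome 4 of the fly is a small autosome in which active genes lie among repeats and heterochromatin proteins, while the sequence around the centromeres of the large chromosomes is rich in repeats and poor in genes. In dm3 such pericentric sequence is held in the Het entries, and scaffolds that could not be placed are joined end to end in U and Uextra, so distances there are those of the assembly file and not of a chromosome. None of the 33 libraries targeted a heterochromatin mark, and the word is used here only for the names of these sequences.

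Chromosome 4 carried 93 peaks in replicate 1 and 90 in replicate 2, a mean of 91.5 ± 2.12 (SD, n = 2). The Het sequences carried 81 and 84 peaks (82.5 ± 2.12), and U and Uextra together carried 106 and 124 (115 ± 12.7). Among the Het sequences, 2RHet had 26 peaks in replicate 1 and 27 in replicate 2, 3RHet had 29 and 25, 3LHet had 21 and 26, and 2LHet had 4 in each list. XHet had 1 peak and 2 peaks, and no peak of either list lay on YHet. U had 50 and 49 peaks. Uextra had 56 peaks in replicate 1 and 75 in replicate 2, the widest gap between the lists among these sequences. For comparison, arms 2L, 2R, 3L and 3R together held 3649 and 3488 peaks.

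**Figure D1:**
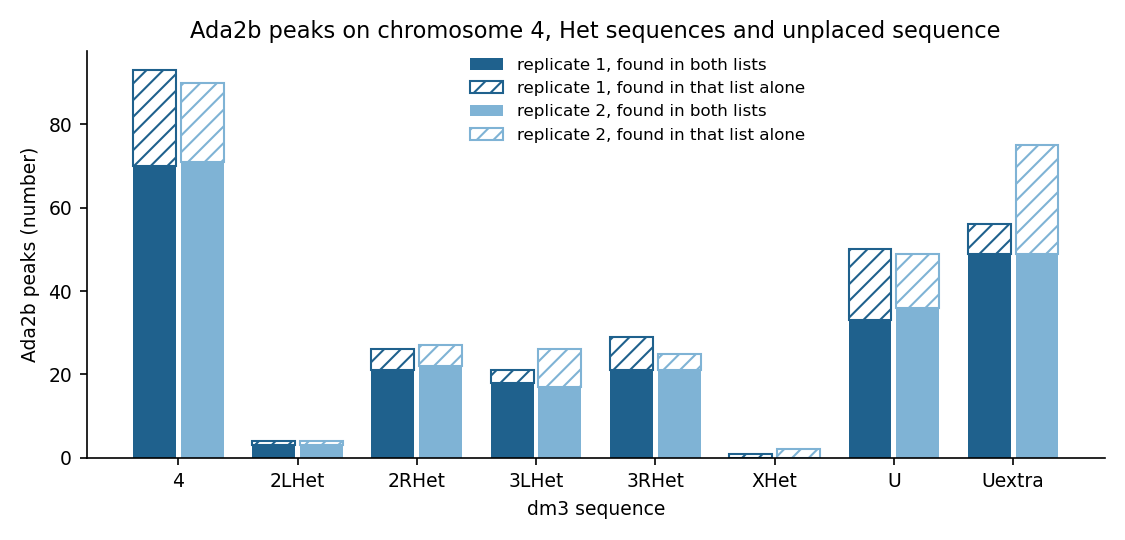
Number of Ada2b peaks (vertical axis) on each dm3 sequence (horizontal axis) in replicate 1 (dark) and replicate 2 (light), with filled bars for peaks sharing at least 1 bp with a peak of the partner list and hatched bars for peaks found in 1 list alone. Chromosome 4 had 93 and 90 peaks, and Uextra had 26 peaks found in replicate 2 alone against 7 found in replicate 1 alone.

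Depth was read from the lists, since fold enrichment and −log10 p at a summit together fix the pileup, the number of ChIP fragments over the base, and the background it was set against. The median pileup over all peaks was 92 fragments in replicate 1 and 82 in replicate 2. The lowest background of a list, which the peak caller takes as its floor, was 98.6 control fragments in replicate 1 and 100.3 in replicate 2. Neither pileup nor local control passed 400 fragments in either list, and a pileup of 400 on the lowest background would give a fold enrichment of 15.6 in replicate 1 and 20.9 in replicate 2. Peaks are not replicates of an embryo. Fisher's exact and exact binomial p-values below therefore describe the list of 1 library and are two-sided. Those of the main settings are adjusted by Benjamini-Hochberg over all 26 tests, of which 9 passed at 0.05. The 116 values tested under other settings are not among these 26, and passes picked from them are descriptions. The adjusted p-values printed for these settings are not corrected over the 116 values.

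Chromosome 4 was denser in Ada2b peaks than the large autosome arms in both lists. It held 70.5 peaks per Mb in replicate 1 and 68.2 in replicate 2, over a span of 1.32 Mb between its first and last peak. Arms 2L, 2R, 3L and 3R held 37.8 and 36.2 peaks per Mb. The ratio was 1.86 in replicate 1 (exact 95% interval 1.50 to 2.29, exact binomial test, adjusted p = 2.55e-07) and 1.89 in replicate 2 (interval 1.51 to 2.33, adjusted p = 2.55e-07). The densest single arm was 2R, with 42.5 and 40.6 peaks per Mb. Peaks covered 2.66% and 2.43% of the span on chromosome 4, against 1.39% and 1.33% on the autosome arms. The ratio was 1.74 for loci found in both lists and 1.99 and 1.98 in the upper 50% of each list by score. Density on the Het sequences was 10.6 and 11.0 peaks per Mb over 7.64 Mb, on U 5.10 and 4.99 over 9.82 Mb, and on Uextra 1.95 and 2.61 over 28.8 Mb. These were not tested, because the spans are of joined or partial scaffolds.

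The peaks of chromosome 4 were spread along it. In 13 windows of 100 kb, counted from the start of the sequence, replicate 1 had 5 to 10 peaks per window and replicate 2 had 4 to 9. The last window, which begins at 1300001 and is reached by the sequence only in part, had 0 peaks in replicate 1 and 1 in replicate 2. Each of the 13 windows held 3 to 7 loci found in both lists. The longest stretch free of peaks in either list ran from 4140 to 64254, near the start of the sequence, and measured 60115 bp.

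Neighbouring summits on chromosome 4 lay a median of 9039 bp apart in replicate 1 and 9618 bp in replicate 2, against 11423 and 12098 bp on the autosome arms. Of the distances on chromosome 4, 16 of 92 (17.4%) and 14 of 89 (15.7%) were under 1 kb, against 11.7% and 12.5% on the arms. The median distance was 54391 and 52411 bp on the Het sequences. Within these it was longest on 2RHet, at 95330 and 95600.5 bp. On U it was 74929 and 57747 bp, and on Uextra 238395 and 241917.5 bp. All distances under 1 kb in unplaced sequence were on U, with 6 in replicate 1 and 9 in replicate 2, and Uextra had 0 in both lists.

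**Figure D2:**
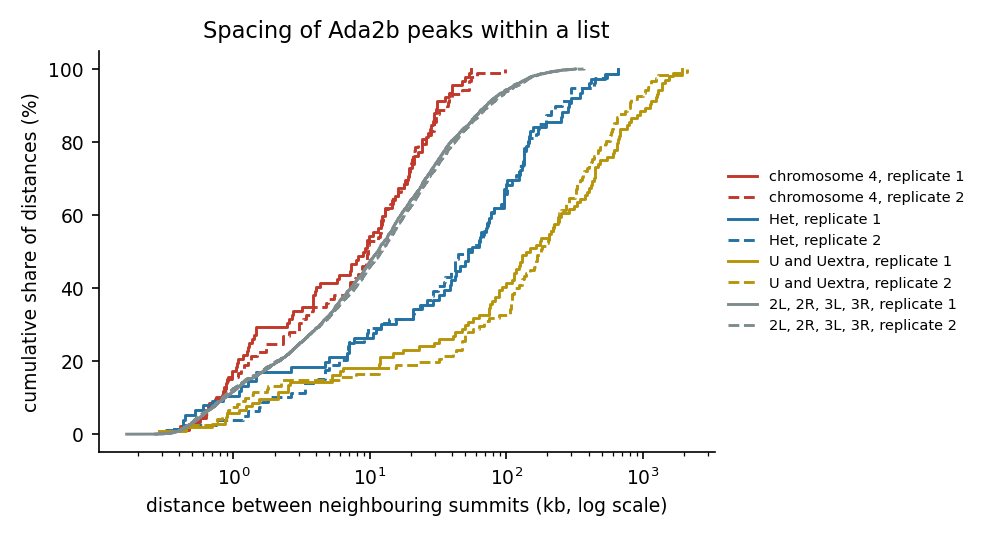
Cumulative share of distances between neighbouring summits (vertical axis, %) against the distance (horizontal axis, kb, log scale) for each kind of sequence, with solid lines for replicate 1 and dashed lines for replicate 2. The curves of chromosome 4 lie left of those of arms 2L, 2R, 3L and 3R at their medians of 9039 and 9618 bp against 11423 and 12098 bp, while those of Het, U and Uextra lie to the right.

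To determine how well these peaks were reproduced, the lists were intersected, with 1 shared bp required. Over all peaks, 81.8% of replicate 1 and 85.2% of replicate 2 overlapped. On chromosome 4, 70 of 93 peaks of replicate 1 did (75.3%, 95% Wilson interval 65.6% to 82.9%) and 71 of 90 of replicate 2 (78.9%, interval 69.4% to 86.1%). The share on the autosome arms was 81.8% and 85.9%. The difference was -6.56 percentage points in replicate 1 (interval -16.3 to 1.19, Fisher's exact test, adjusted p = 0.232) and -7.01 in replicate 2 (interval -16.6 to 0.25, adjusted p = 0.145), and neither passed. The lists were also cut to their upper 50% by score before they were intersected, so a partner below the cut no longer counted. The sign then turned, to 4.04 points in replicate 1 and 4.21 in replicate 2 (Fisher's exact test, adjusted p = 0.709 and 0.694).

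On the Het sequences, 63 of 81 peaks (77.8%) and 63 of 84 (75.0%) were found in both lists. The difference from the arms was -4.05 points in replicate 1 (interval -14.3 to 3.73, Fisher's exact test, adjusted p = 0.496). In replicate 2 it was -10.9 points (interval -21.2 to -2.78, Fisher's exact test, adjusted p = 0.0306). Between the lists cut to their upper 50% by score, the differences turned to 5.48 points in replicate 1 and 1.61 in replicate 2 (Fisher's exact test, adjusted p = 0.694 and 1). The share was 72.4% and 84.0% on 3RHet and 85.7% and 65.4% on 3LHet, so the order of these sequences turned round between the lists. None of the peaks on XHet overlapped. Wilson intervals cover counting error only.

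On U and Uextra, 82 of 106 peaks (77.4%) and 85 of 124 (68.5%) were found in both lists. The difference from the arms was -4.47 points in replicate 1 (interval -13.4 to 2.57, Fisher's exact test, adjusted p = 0.384) and -17.3 points in replicate 2 (interval -26.04 to -9.74, adjusted p = 6.1e-06). The sequences differed: 66.0% and 73.5% of peaks overlapped on U, and 87.5% and 65.3% on Uextra. On U alone, a split chosen after the values were seen, the difference was -15.8 points in replicate 1 (Fisher's exact test, adjusted p = 0.0281) and -12.4 in replicate 2 (adjusted p = 0.0561). On Uextra alone it was 5.67 points in replicate 1 (Fisher's exact test, adjusted p = 0.496) and -20.6 in replicate 2 (adjusted p = 3.17e-05). With only peaks under 200 control fragments kept in both lists, the difference of U and Uextra in replicate 1 was -12.4 points (Fisher's exact test, adjusted p = 0.0283).

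Peaks of chromosome 4 and the Het sequences stood on a low background more often than those of the large autosome arms, and peaks of X did so too. Over all peaks, 20.6% of replicate 1 and 26% of replicate 2 stood on the lowest background of their list, meaning that no local window held more control reads than the genome-wide floor. On chromosome 4 these were 43 of 93 peaks (46.2%) and 64 of 90 (71.1%), against 12.9% and 20.1% on the autosome arms. The difference was 33.4 points in replicate 1 (interval 23.5 to 43.5, Fisher's exact test, adjusted p = 1.13e-13) and 51.0 in replicate 2 (interval 40.9 to 59.5, adjusted p = 3.61e-23). On the Het sequences, 38 of 81 peaks (46.9%) and 56 of 84 (66.7%) stood there, a difference of 34.0 points (interval 23.5 to 44.8, Fisher's exact test, adjusted p = 1.44e-12) and 46.6 points (interval 35.9 to 55.9, adjusted p = 1.44e-18). X, which is not among the arms compared, had 378 of 713 peaks (53.0%) in replicate 1 and 313 of 684 (45.8%) in replicate 2 on the lowest background. The X share was thus above those of chromosome 4 and Het in replicate 1 and below them in replicate 2, and these differences were not tested. The share was 28.3% and 27.4% on U and Uextra. There the difference passed in replicate 1 (15.4 points, Fisher's exact test, adjusted p = 0.000103) and missed in replicate 2 (7.35 points, interval 0.137 to 15.9, adjusted p = 0.125). In replicate 1 it no longer passed with X among the arms (8.86 points, Fisher's exact test, adjusted p = 0.0935) or with backgrounds up to 10% above the lowest counted (5.39 points, adjusted p = 0.408).

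Paired peaks stood on the lowest background in replicate 2 alone more often than in replicate 1 alone, on the arms as well as on chromosome 4 and Het. Of 69 peaks of chromosome 4 that paired one to one between the lists, 31 stood on the lowest background in both, 22 in replicate 2 alone, 2 in replicate 1 alone and 14 in neither. Of 60 pairs on the Het sequences, 16 stood on it in replicate 2 alone and 0 in replicate 1 alone. U and Uextra went the other way, with 2 of 79 pairs in replicate 2 alone and 4 in replicate 1 alone. On the autosome arms, 342 of 2856 pairs stood on it in both lists, 265 in replicate 2 alone, 62 in replicate 1 alone and 2187 in neither. The cause of the low control under these peaks was not tested.

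Among the sequences examined here, high local controls were most frequent on the unplaced sequence. A local control of at least 200 fragments was found under 33 peaks (31.1%) of U and Uextra in replicate 1 and 42 (33.9%) in replicate 2, against 9 (0.247%) and 41 (1.18%) on the autosome arms. Chromosome 4 had 1 such peak in each list, and the Het sequences had 4 and 5. The high-control peaks of U and Uextra had a median fold enrichment of 2.29 in replicate 1 and 2.50 in replicate 2, against 2.90 and 3.62 for the other peaks there. Of the high-control peaks, 30 of 33 and 34 of 42 were found in both lists. Of the other peaks there, 52 of 73 (71.2%) and 51 of 82 (62.2%) were, against 81.8% and 85.2% over all peaks. These counts were not tested.

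**Figure D3:**
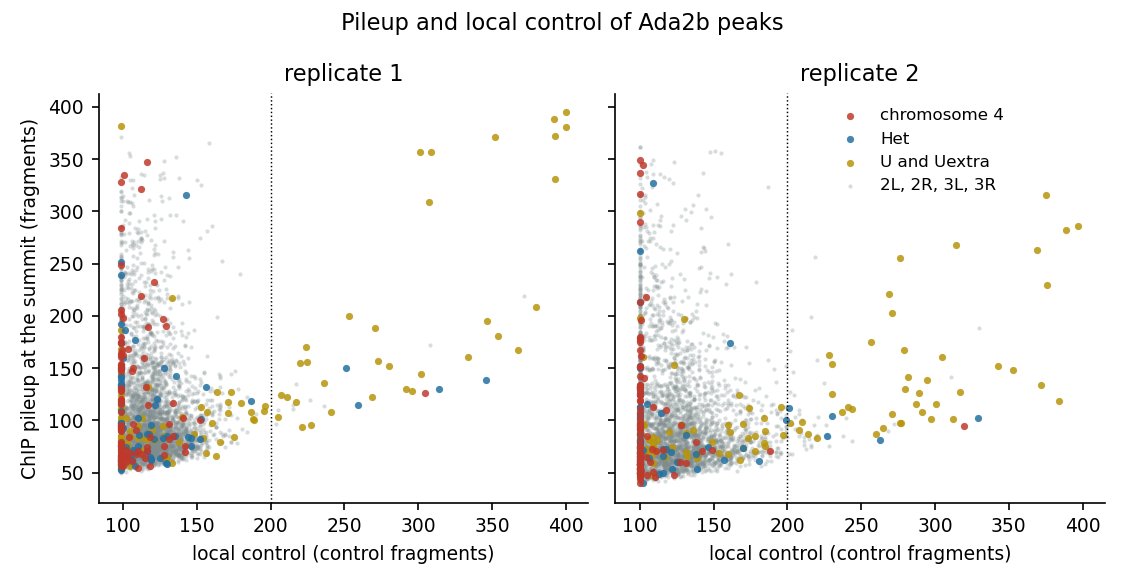
ChIP pileup at the summit (vertical axis, fragments) against the local control (horizontal axis, control fragments) for every peak of replicate 1 (left) and replicate 2 (right), with the dotted line at 200 control fragments. Peaks of chromosome 4 gather at the lowest background of 98.6 and 100.3 fragments, and 33 and 42 peaks of U and Uextra lie at or beyond the line.

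Peak strength and width differed less. Median fold enrichment on chromosome 4 was 3.53 in replicate 1 and 3.98 in replicate 2, with upper quartiles of 6.01 and 6.91, against medians of 3.05 and 3.54 and upper quartiles of 4.24 and 5.08 on the autosome arms. The median pileup was 97 and 80 fragments on chromosome 4, against 93 and 82 on the arms, so the pileups lay closer together than the folds. Median fold enrichment was 2.90 and 3.40 on the Het sequences and 2.77 and 3.34 on U and Uextra. These fold values share their denominator with the background described above, and the medians were not tested. The share of chromosome 4 peaks above the list median fold was 6.03 points above the arms in replicate 1 and 7.53 in replicate 2 (Fisher's exact test, adjusted p = 0.382 and 0.254). On Het the difference was -4.36 and -2.71 points (Fisher's exact test, adjusted p = 0.542 and 0.686), and none of these passed.

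**Figure D4:**
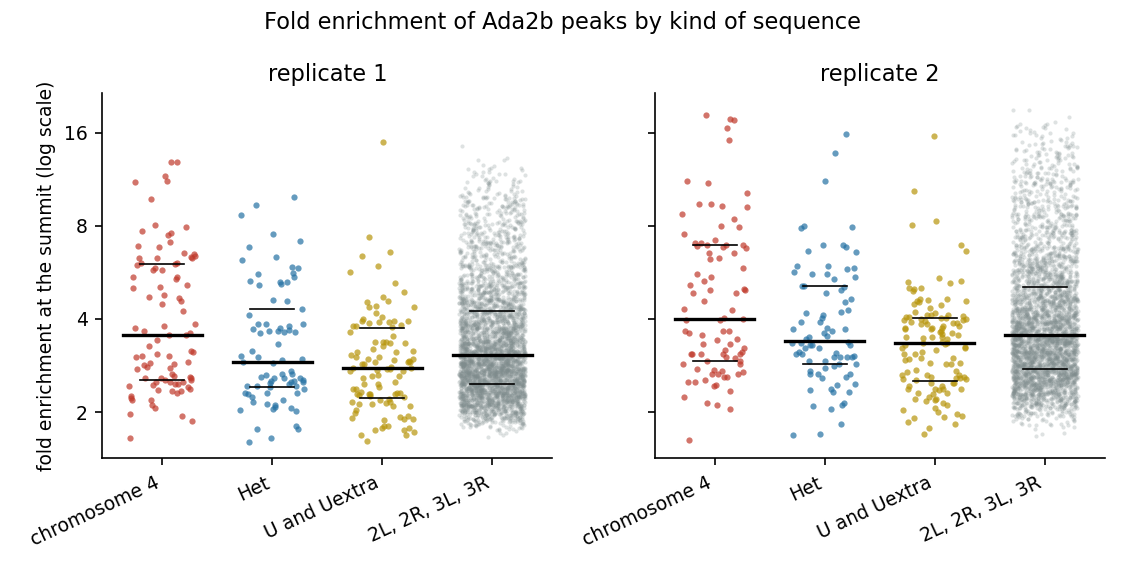
Fold enrichment at the summit (vertical axis, log scale) of every Ada2b peak by kind of sequence (horizontal axis) in replicate 1 (left) and replicate 2 (right), with long lines for medians and short lines for quartiles. The medians of chromosome 4, at 3.53 and 3.98, are above those of arms 2L, 2R, 3L and 3R, at 3.05 and 3.54, with wide overlap.

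The score of a peak, its −log10 q times 10, was set against the median of its list, which 50.0% of all peaks of replicate 1 and 50.0% of replicate 2 exceeded. On chromosome 4, 52.7% and 52.2% of peaks did, a difference from the arms of 3.22 points (interval -6.96 to 13.2, Fisher's exact test, adjusted p = 0.65) and 2.39 points (interval -7.94 to 12.5, adjusted p = 0.698). The share was 45.7% and 42.9% on the Het sequences and 44.3% and 46.0% on U and Uextra, and none of these 6 comparisons passed. On U and Uextra, ranking by fold enrichment in place of the score made the difference -12.0 points in replicate 1 (Fisher's exact test, adjusted p = 0.0458). In replicate 2 it was -5.59 points and did not pass (Fisher's exact test, adjusted p = 0.34). At the top of the lists, 16 peaks (17.2%) and 14 peaks (15.6%) of chromosome 4 were in the best 10% by score, against 9.81% and 10.1% of peaks on the arms, a description with no test.

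Widths were compared in the same way, with 49.7% of all peaks of replicate 1 and 49.8% of replicate 2 wider than the median of their list. On chromosome 4, 59.1% and 58.9% were wider, a difference from the arms of 9.29 points (interval -0.998 to 18.9, Fisher's exact test, adjusted p = 0.185) and 9.06 points (interval -1.40 to 18.8, adjusted p = 0.202). In replicate 2 this became 20.0 points in the upper 50% of the list by score (Fisher's exact test, adjusted p = 0.0215). The share was 48.1% and 38.1% on the Het sequences and 46.2% and 54.8% on U and Uextra. No comparison of widths passed at the main settings. Median widths on chromosome 4 were 328 and 321 bp, on the Het sequences 307 and 286.5 bp, and on U and Uextra 304.5 and 314 bp, against 309 bp on the arms in both lists.

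**Figure D5:**
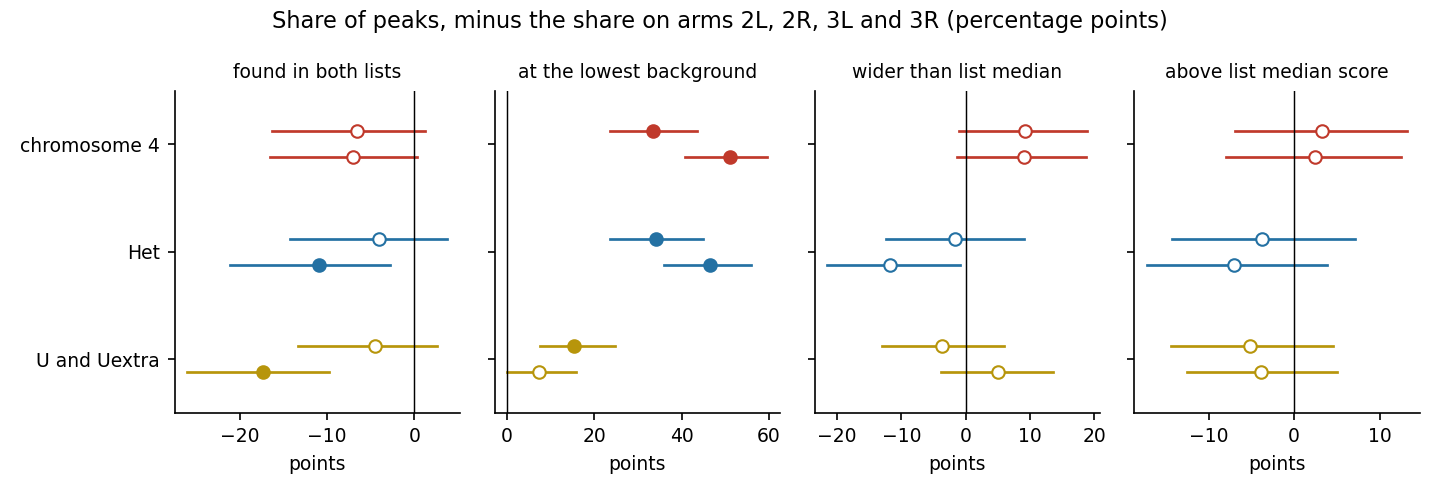
Difference in percentage points (horizontal axes) between the share of peaks on chromosome 4, Het, or U and Uextra (rows) and that on arms 2L, 2R, 3L and 3R, for 4 measures, with 95% intervals, replicate 1 above replicate 2, and filled points where the adjusted p of Fisher's exact test was under 0.05. Chromosome 4 and Het stand 33.4 to 51.0 points above the arms in the share at the lowest background, and no point is filled for width or score.

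Peaks found in both lists were merged into loci. Of 3750 such loci, 214 lay on these sequences, with 70 on chromosome 4, 62 on the Het sequences and 82 on U and Uextra. The Het loci were split into 21 on 2RHet, 21 on 3RHet, 17 on 3LHet and 3 on 2LHet, and the unplaced loci into 33 on U and 49 on Uextra. Their median width was 390 bp on chromosome 4, 349.5 bp on Het and 348 bp on U and Uextra, against 357 bp on the autosome arms.

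Ranks of paired peaks followed each other. Spearman's rho of the score rank was 0.951 over the 69 pairs on chromosome 4, 0.90 over 60 pairs on Het and 0.857 over 79 pairs on U and Uextra, against 0.895 over 2856 pairs on the arms. These coefficients are across peaks of the same libraries and are descriptions. Paired summits lay a median of 16, 21 and 11 bp apart on chromosome 4, Het, and U and Uextra, against 18 bp on the arms.

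The strongest locus of chromosome 4 by mean rank ran from 1000294 to 1000931. It ranked 10 in replicate 1 and 5 in replicate 2, with fold enrichments of 12.8 and 18.2 and pileups of 335 and 349 fragments, and its summits lay 3 bp apart. The next locus, from 89137 to 90332, ranked 12 and 7 with folds of 11.6 and 17.7, and its summits fell on the same base. The locus from 445206 to 445630 ranked 11 and 22 with folds of 12.8 and 16.6. These loci were thus near the top of both whole lists. The locus from 856035 to 856934 ranked 33 and 10, with folds of 11.1 and 17.6.

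The other 4 of the 8 best ranked loci of chromosome 4 began at 506916, 718047, 887487 and 64255. Over all 8 loci, the fold was 7.46 to 12.8 in replicate 1, with ranks of 10 to 265, and 9.43 to 18.2 in replicate 2, with ranks of 5 to 352. Their summits lay 0 to 14 bp apart. Of the 8 loci, 3 stood on the lowest background in replicate 1 and 6 in replicate 2. The widest reproduced locus of chromosome 4, from 680028 to 681469, measured 1442 bp and had folds of 6.51 and 7.97.

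On the Het sequences the best ranked locus was on 3RHet from 2107011 to 2107470. It ranked 81 in replicate 1 and 20 in replicate 2, with folds of 8.63 and 15.8 and pileups of 316 and 327 fragments. Its local control was 143 fragments in replicate 1 and 109 in replicate 2, so the pileups were close while the folds were not. A locus on 3RHet from 2349170 to 2349906 followed, with ranks of 125 and 103 and folds of 9.87 and 13.7 on the lowest background of both lists. On 3LHet, the locus from 1396355 to 1397124 ranked 149 and 210 and was called as 2 peaks in replicate 1 and 1 in replicate 2. The locus on 3LHet from 2190599 to 2191015 ranked 357 and 517. The widest reproduced Het locus, on 2RHet from 197990 to 198789, measured 800 bp and had folds of 3.59 and 3.91.

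On unplaced sequence, the locus on Uextra from 5223905 to 5224540 ranked 1 of all peaks in replicate 1 and 45 in replicate 2. Its folds were 14.9 and 15.6, on pileups of 382 and 298 fragments and the lowest background of both lists. In replicate 1 the fold was thus close to the 15.6 that 400 fragments would give. The next locus, on Uextra from 26835019 to 26835457, ranked 384 and 272 with folds of 7.34 and 10.4. On U, the locus from 3396121 to 3396468 ranked 365 and 368, with folds of 6.37 and 8.06.

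The other named locus of U, from 5301674 to 5302004, ranked 236 and 444 on a local control of 301 and 276 fragments, with folds of 4.70 and 5.01. It belonged to a run of close peaks from 5288510 to 5303420, singled out after its values were seen. The run held 10 peaks of replicate 1 and 14 of replicate 2 in 14911 bp, of which 10 and 13 were found in both lists. Local control in the run was 301 to 400 fragments in replicate 1 and 184 to 397 in replicate 2, and fold enrichment was 2.04 to 4.70 and 2.29 to 5.01. The widest reproduced locus of unplaced sequence, from 5292553 to 5294380 on U, lay in this run and measured 1828 bp, with pileups of 395 and 286 fragments against controls of 400 and 397. No peak of the run stood on the lowest background, so leaving the run out could only raise the share of U and Uextra peaks there. In replicate 2 that share went from 27.4% to 30.9%, or 10.8 points above the arms (Fisher's exact test, adjusted p = 0.0228). As this rise was fixed by the choice of the run, no conclusion is drawn from it. Pileups in the run reached 395 fragments in replicate 1, close to the 400 that no pileup passed. The part of such a limit in these folds was not tested.

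Peaks found in 1 list alone were weaker. On chromosome 4 they had median folds of 2.40 in replicate 1 (23 peaks) and 2.69 in replicate 2 (19 peaks), against 4.74 and 5.00 for peaks found in both lists. On the Het sequences the same medians were 2.30 and 2.81 (18 and 21 peaks), against 3.62 and 3.91. On U and Uextra they were 2.20 and 2.89 (24 and 39 peaks), against 2.94 and 3.58. Overlap moved with strength in this way on the arms too, with 2.37 and 2.54 against 3.33 and 3.85. Within U and Uextra the high-control peaks went the other way, with lower median folds but more overlap than the other peaks there.

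The best ranked peak of chromosome 4 found in replicate 1 alone, from 631122 to 631360, ranked 1772 with a fold of 3.75. In replicate 2 it was the peak from 3898 to 4139, which ranked 2069 with a fold of 4.01, and whose nearest peak in replicate 1 lay 60115 bp away. On the Het sequences these peaks ranked 2826 in replicate 1, on 2LHet from 33163 to 33383, and 1918 in replicate 2, on 3RHet from 1663728 to 1663956. On Uextra, the peak from 15996288 to 15996652 ranked 711 in replicate 1 with a fold of 5.66 and had no peak of replicate 2 within 48460 bp. The peak on Uextra from 17087736 to 17088049 ranked 1622 in replicate 2 with a fold of 4.58. A stretch of 3RHet from 788984 to 791735, singled out after its values were seen, held 5 peaks in replicate 1 and 0 in replicate 2. Those 5 peaks had folds of 2.02 to 2.42 on pileups of 58 to 84 fragments.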

How the data were processed

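Embryo chromatin was immunoprecipitated for Ada2b and sequenced, and 1 peak list per replicate was used. Per the labels, the authors used CASAVA 1.8.2, Bowtie with genome build dm3, and MACS2. For Ada2b ChIP placed in a different series, the study gives bowtie with -k 1 and -m 3 (1 alignment per read, reads with more than 3 matches dropped) and MACS2 with its defaults. Whether these settings and which control library were used for the lists here is not given in the sources used here, and the treatment of reads with several matches bears on Het, U and Uextra. The deposited columns are a score, a fold enrichment (a ratio of pileup to background), and, for the summit, a −log10 q-value and a −log10 p-value. The deposited score equalled 10 times −log10 q without its decimals in 100% of peaks.

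Pileup and background were solved from fold enrichment and −log10 p as a Poisson tail with 1 added to both terms of the ratio. In both lists, 100% of backgrounds above the lowest were whole multiples of 1 control fragment, once averages over 1 kb or 10 kb were allowed. The control held 4.00 and 5.51 times the fragments of the ChIP library.

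Each kind of sequence was set against arms 2L, 2R, 3L and 3R of the same list by Fisher's exact test with 95% Newcombe intervals of the difference. Density was compared by an exact binomial test over spans from the first to the last peak of either list. Named loci are the 8, 4 and 4 reproduced loci with the best mean rank on chromosome 4, Het, and U and Uextra, the widest locus of each, and the best ranked peak found in 1 list alone of each and list. The members, lists and tests were chosen with earlier results of these data known. Alternatives were a reciprocal overlap of 50%, a gap of 500 bp, the upper 50% by score, X among the arms, local control under 200 fragments, a looser lowest background, ranking by fold enrichment, merging within 500 bp, base pairs covered and single lists. U alone, Uextra alone and leaving out the run on U were added after the data were examined. Functions were tested on simulated data. A dm3 genome and annotation were not used here, so no sequences or genes are given. Python 3.11.15, numpy 2.4.6, scipy 1.17.1, pandas 2.3.3, statsmodels 0.14.6 and matplotlib 3.10.9 were used.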

Additional observations from a re-analysis of the deposited data

How the results depend on the processing

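Of 116 alternative values of the 26 tested results, 100 kept their direction and their side of the test. With both lists cut to the upper 50% by score before they were intersected, the overlap share turned its sign on chromosome 4 and Het. The differences were 4.04 points in replicate 1 and 4.21 in replicate 2 on chromosome 4, and 5.48 and 1.61 on Het. Of these, only Het in replicate 2 had been called. Differences that had not been called also turned for overlap on Uextra alone in replicate 1 (5.67 points), and for width with peaks within 500 bp merged on Het in replicate 1 (2.29) and on U and Uextra in replicate 2 (-2.04), the last also in the upper 50% by score (-13.3). Calls were gained for overlap on U and Uextra in replicate 1 at a local control under 200 fragments (-12.4 points) and on U alone (-15.8 points). A call on width was gained on chromosome 4 in replicate 2 in the upper 50% by score (20.0 points). Another, on strength, came on U and Uextra in replicate 1 ranked by fold enrichment (-12.0 points). The lowest background on U and Uextra in replicate 2 also passed without the run on U (10.8 points). No peak of the run stood on the lowest background, so that rise was fixed in advance. Calls were lost for the lowest background on U and Uextra in replicate 1 with backgrounds up to 10% above the lowest (5.39 points) and with X among the arms (8.86 points), and for overlap on U alone in replicate 2 (-12.4 points). Density on chromosome 4 by base pairs covered was 1.91 and 1.83 times that of the arms. The cause was not tested for any of these.

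Median spacing, averaged over the lists, was 9.33 kb on chromosome 4, 53.4 kb on Het and 160.9 kb on U and Uextra. It became 11.9, 62.2 and 191.8 kb with peaks within 500 bp merged, and 20.4, 124.6 and 477.6 kb in the upper 50% by score, as both settings leave fewer peaks. Without replicate 1 or 2, the 70, 62 and 82 loci of chromosome 4, Het, and U and Uextra became 90 to 93, 81 to 84 and 106 to 124 peaks of single lists, since no overlap is then asked. Classes of 81 to 124 peaks limit the precision of every share. No paired analysis was possible because only 1 group had peak lists and each was tested on its own.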
